A study of Homo sapiens with 2 samples.

Results

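The forkhead box (FOX) genes were followed by RNA-seq in SK-N-AS (AS), a cell line from a human neuroblastoma, in unedited cells (AS WT) and in cells without serine-threonine kinase receptor-associated protein (AS STRAP KO). STRAP is an adaptor that binds TGF-β receptors and the inhibitory SMAD7, and the comparison asks how its loss changes gene expression in neuroblastoma. Members were every symbol made of FOX, a subfamily letter from A to S and a number, which gave 44 of the 59429 symbols in the table. Each genotype had 1 untreated library. AS STRAP KO was made with a Cas9 and guide plasmid and came from a single sorted cell, so that it is 1 clone, while AS WT is the parental, MYCN non-amplified line. A property of that clone and an effect of the lost protein therefore cannot be told apart, and no difference below has a replicate check or a p-value.

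Forkhead proteins share a DNA-binding domain of winged-helix type and read sites related to the letters TGTTTAC. Some open closed chromatin during development, as the FOXA proteins do in endoderm. Others carry signals to genes, as the FOXO proteins do when AKT, a kinase downstream of PI3K, keeps them out of the nucleus. FOXM1 acts with the MuvB complex and B-MYB on genes of G2 and mitosis. In the neural crest, from which neuroblastoma arises, FOXD3 marks early cells before they migrate.

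Values are FPKM, read fragments per kilobase of transcript scaled to the number of mapped reads, and differences are log2 ratios of AS STRAP KO over AS WT. STRAP itself had 244 FPKM in AS WT against 179 in AS STRAP KO, for a log2 ratio of -0.45, and this level does not measure the edit or the protein. At 1 FPKM the libraries held an estimated 26.3 and 26.7 reads per kilobase, so that both were of similar depth. Of 13 adrenergic neuroblastoma markers, 8 reached 1 FPKM in a library, with none higher and 3 lower by 2-fold or more and a summed level of 471 against 372 FPKM. Among them was HAND2, with 227 FPKM in AS WT against 228 in AS STRAP KO. All 8 mesenchymal markers reached it, of which 5 were higher and 3 lower by any amount, with a median log2 ratio of 0.59 and 1 beyond 2-fold on each side. Their sum was 1750 and 1500 FPKM, most of it VIM, with 1368 and 896 FPKM. Of all rows that reached 1 FPKM in a library, 8.31% were higher and 10.6% lower by 2-fold or more. By any amount, 50.1% of them were higher. The catecholamine genes TH and DDC and the granule gene CHGA were listed at 0 in both, as were the immune gene PTPRC and the Schwann cell gene SOX10. All 4 epithelial and all 4 endothelial markers were under 1 FPKM (sums 0.791 and 1.62, and 0.254 and 0.572 FPKM), although EPCAM was 0.0859 FPKM in AS WT against 0.674 in AS STRAP KO and PECAM1 was 0.132 and 0.552 FPKM. The part of these markers in the values below was not tested.

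Forkhead genes were mostly higher in AS STRAP KO. Of the 44 members, 21 had 1 FPKM or more in at least 1 library, 15 were below that but above 0 in at least 1 library, and 8 were listed at 0 in both. Of the 21, 5 were at least 2-fold higher in AS STRAP KO (23.8%), FOXD3, FOXA3, FOXA2, FOXC1 and FOXF1, and none was at least 2-fold lower. Among all 13527 rows of the table that passed the same filter, 8.31% were higher by 2-fold or more and 10.6% lower by as much. Rows with a highest value from 1 to 20 FPKM, where all 5 of these members lie among 15, were at least 2-fold higher in 11.8% of cases. A member needed only 1 library at 1 FPKM to enter, and 3 of the 5 entered through AS STRAP KO alone. Over members with at least 1 FPKM in both libraries, 2 of 17 were at least 2-fold higher (11.8%), against 4.87% of the 11846 rows under that filter.

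By any amount, 19 of the 21 were higher in AS STRAP KO (90.5%, against 50.1% of all rows), a number that depended on the scale as given next, and FOXO3 and FOXR2 were lower. With the upper quartile of each library's rows above 0 as the scale, which moved the median of all rows to -0.16, 15 were higher and 6 lower, since FOXM1, FOXN3, FOXP1 and FOXK1 turned lower. The median log2 ratio over the 21 was 0.49, against 0.0023 over all rows, and 0.33 on that scale. FOXD3, FOXA3, FOXA2 and FOXC2 reached 1 FPKM in AS STRAP KO only, so the filter could admit them only as higher. With at least 1 FPKM in both libraries, 15 of 17 members were higher by any amount (88.2%, against 51.1% of such rows). Their median was 0.43, against 0.018 over those rows. Longer transcripts had higher ratios in these libraries. Protein-coding genes outside the family had a median of -0.09 where the longest transcript was under 2500 bases, 0.06 from 2500 to 5000 bases and 0.16 from 5000 bases up. The 10 members in the middle class had a median of 0.87 and the 8 in the longest class 0.44, and the part of length in the family's ratios was not tested.

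Summed over all members, forkhead FPKM came to 262 in AS WT and 342 in AS STRAP KO, for a log2 ratio of 0.38. Sums here count whole rows, and those of FOXP1 (18.6 and 20.3 FPKM) and FOXN3 (19.9 and 21.5 FPKM) are shared with other genes. The largest subfamilies were FOXK, with summed FPKM of 43.4 and 55.7, FOXP, with 31.5 and 41.4, and FOXD, with 24.9 and 39.6, beside FOXM1 alone. FOXC had 6.65 and 20.2, FOXF 7.18 and 16.4 and FOXA 0.645 and 4.95, so that the sums of these subfamilies were more than 2-fold apart. FOXJ, FOXN and FOXO sums stood at 22.4, 23.1 and 8.41 in AS WT and at 28.3, 25.8 and 9.78 in AS STRAP KO. Among the rows that passed the filter, FOXC1 stood above 34.1% in AS WT and above 58.7% in AS STRAP KO, and FOXA3 above 1.72% and 26.5%.

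**Figure D1:**
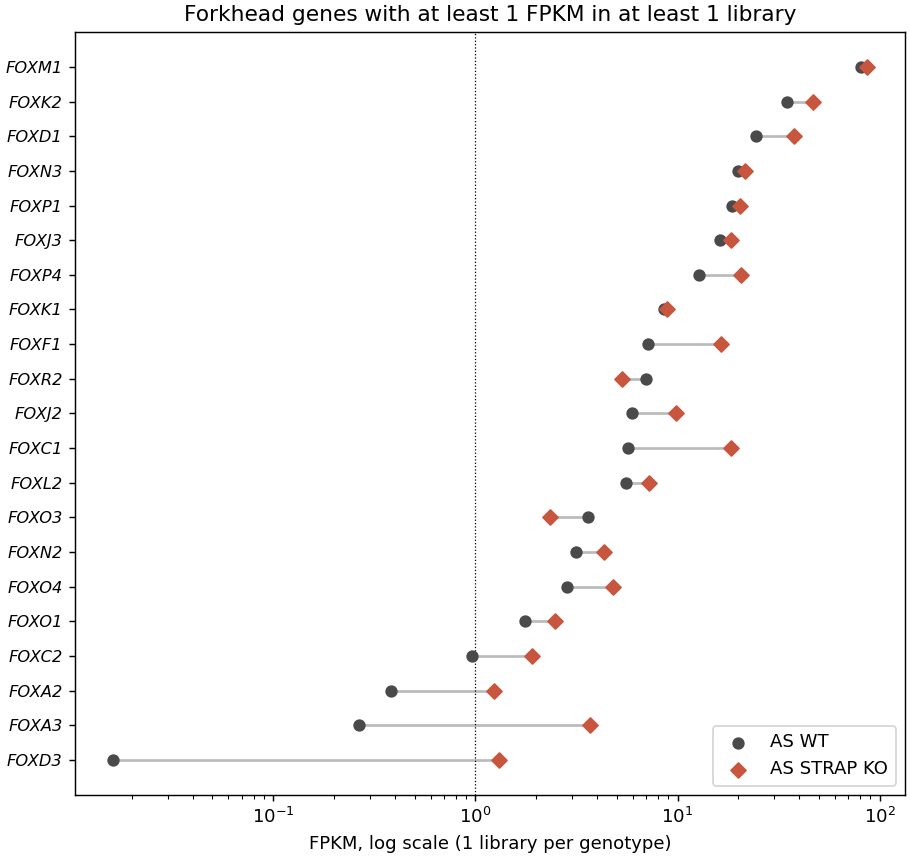
FPKM of each forkhead gene that reached 1 FPKM in a library, on a log axis, with 1 point per library and a dotted line at 1 FPKM. AS STRAP KO lies to the right for 19 of 21 genes, with FOXO3 and FOXR2 the exceptions (FOXM1, FOXN3, FOXP1 and FOXK1 turn lower on an upper-quartile scale), and FOXD3, FOXA3, FOXA2 and FOXC2 start below 1 FPKM in AS WT.

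**Figure D2:**
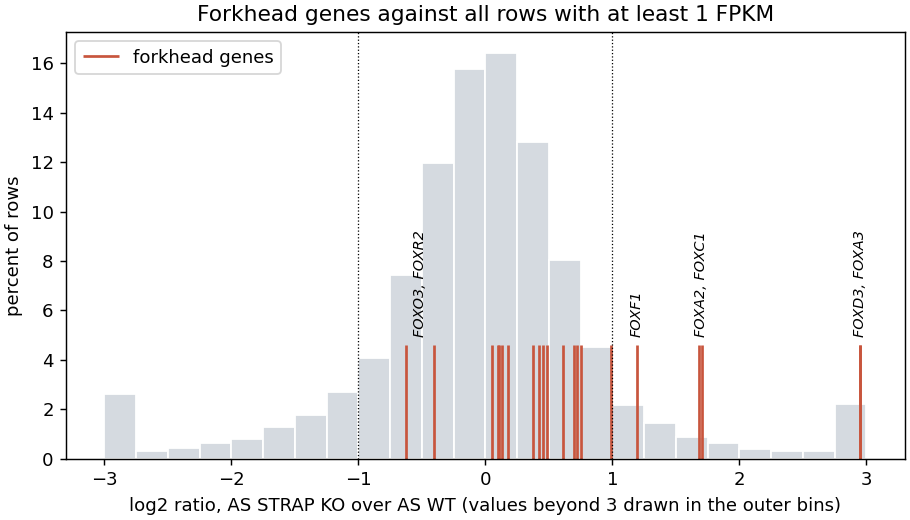
Percent of the 13527 rows that reached 1 FPKM in a library in each bin of log2 ratio (grey), with the 21 forkhead genes as red lines and dotted lines at 2-fold. The genes beyond 2-fold are all on the higher side, with FOXA3 at 3.80 and FOXD3 at 6.35 drawn in the last bin.

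FOXC1, a factor of mesenchyme, vessels and the anterior eye, had the largest gain in FPKM among the members at least 2-fold higher. It had 5.69 FPKM in AS WT against 18.3 in AS STRAP KO, 3.21-fold higher. Its log2 ratio was 1.68, with a 95% counting interval from 1.55 to 1.82 at an estimated 566 and 1849 reads. Such intervals cover counting error between these libraries only, not the spread between cultures or clones. FOXC1 (ENSG00000054598.9) is a single exon on chromosome 6 of GRCh38, plus strand, from 1609915 to 1613897. Of the other forkhead genes of this locus, FOXQ1 was listed at 0 in both libraries and FOXF2 had about 1 read in AS WT (0.0169 FPKM) against a listed 0 in AS STRAP KO. The next expressed protein-coding gene, GMDS, an enzyme of GDP-fucose synthesis, had 40.9 and 51.8 FPKM.

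FOXF1 (ENSG00000103241.7, 86510527 to 86515422), FOXC2 (ENSG00000176692.8, 86566829 to 86569728) and FOXL1 (86576368 to 86583478) lie side by side on chromosome 16 of GRCh38, all on the plus strand. FOXF1, a hedgehog-responsive factor of lung and gut mesenchyme, had 7.16 FPKM in AS WT against 16.4 in AS STRAP KO, for a log2 ratio of 1.19 (counting interval 1.06 to 1.33). FOXC2, needed for lymphatic vessels and their valves, had 0.959 FPKM in AS WT against 1.90 in AS STRAP KO, which at 1.98-fold is just under the 2-fold limit. FOXL1, a factor of gut mesenchyme, had 0.194 and 0.162 FPKM. The antisense transcript FOXC2-AS1 had 0.320 FPKM in AS WT against 0.630 in AS STRAP KO, nearly the same ratio as FOXC2. FENDRR, a long noncoding RNA transcribed away from FOXF1, had 8.42 and 12.2 FPKM, a log2 ratio of 0.53. The 6 expressed protein-coding genes within 1 Mb of FOXF1, FOXC2 among them, had a median log2 ratio of 0.17. The library was strand-specific and strand was set in the quantification, so that antisense transcripts were counted apart from their partners.

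FOXD3 went from about 1 read to 83. It had 0.0161 FPKM in AS WT against 1.32 in AS STRAP KO, for a log2 ratio of 6.35 with a counting interval from 3.83 to 11.7. Since the lower value rests on 1 read, the size of the ratio is poorly fixed, and with 1 FPKM added it was 1.19. FOXD3-AS1, which is transcribed from the opposite strand of the same locus, had 0.389 FPKM in AS WT against 4.57 in AS STRAP KO, for a log2 ratio of 3.56. The 8 expressed protein-coding genes within 1 Mb had a median of 0.0037 and none was beyond 2-fold. FOXD3 (ENSG00000187140.6) is a single exon on chromosome 1 of GRCh38 from 63322567 to 63325128.

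FOXA2 and FOXA3, pioneer factors of liver and other endoderm, were both low in AS WT. FOXA3 had 0.265 FPKM in AS WT against 3.70 in AS STRAP KO, 13.9-fold higher, and its log2 ratio of 3.80 had a counting interval from 2.96 to 4.78. FOXA3 (ENSG00000170608.3) lies on chromosome 19 from 45863989 to 45873797, and the 37 expressed protein-coding genes within 1 Mb had a median log2 ratio of -0.39, with 1 higher by 2-fold or more and 4 lower by as much. FOXA2 had 0.380 FPKM in AS WT against 1.24 in AS STRAP KO, for a log2 ratio of 1.71 (counting interval 1.05 to 2.48). FOXA2 (ENSG00000125798.15) lies on the minus strand of chromosome 20 from 22580998 to 22585455, where the 3 expressed protein-coding genes within 1 Mb had a median of 0.10. With 1 FPKM added to each value the log2 ratio of FOXA2 was 0.70, under the limit, and that of FOXA3 1.89. FOXA1, the remaining member of the subfamily, had about 1 read in AS STRAP KO and was listed at 0 in AS WT.

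The sequences before the start sites of a pair of members that were at least 2-fold higher and of FOXR2, which was lower, are shown because they differ in CpG, the dinucleotide at which DNA methylation acts. They stand for no contrast between higher and lower members, since FOXO3, also lower, has promoters with 42, 37, 32 and 2 CpG. Methylation was not measured here. Each is the 250 bases before the RefSeq start on GRCh38.p14, 5′ to 3′ on the strand of the gene (plus for each), with CpG in capitals.
FOXC1, chr6:1609665-1609914: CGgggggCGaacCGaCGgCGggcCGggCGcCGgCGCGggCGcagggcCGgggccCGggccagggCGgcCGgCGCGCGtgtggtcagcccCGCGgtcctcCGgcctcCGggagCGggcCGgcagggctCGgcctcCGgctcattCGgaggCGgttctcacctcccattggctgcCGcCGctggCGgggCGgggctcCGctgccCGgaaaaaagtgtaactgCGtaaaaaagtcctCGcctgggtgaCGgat
FOXD3, chr1:63322317-63322566: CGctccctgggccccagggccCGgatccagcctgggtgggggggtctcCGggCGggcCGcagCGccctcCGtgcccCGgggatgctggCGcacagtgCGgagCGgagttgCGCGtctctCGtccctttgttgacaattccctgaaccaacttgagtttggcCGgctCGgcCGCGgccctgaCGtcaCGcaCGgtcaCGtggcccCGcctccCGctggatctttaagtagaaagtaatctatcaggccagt
FOXR2, chrX:55623150-55623399: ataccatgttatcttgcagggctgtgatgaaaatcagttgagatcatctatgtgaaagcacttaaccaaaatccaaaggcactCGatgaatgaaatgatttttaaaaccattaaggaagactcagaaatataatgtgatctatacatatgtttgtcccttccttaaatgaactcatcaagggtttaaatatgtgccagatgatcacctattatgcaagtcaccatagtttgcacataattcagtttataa
The FOXC1 stretch holds 37 CpG, more than 96.0% of the 35116 RefSeq promoters in the table, that of FOXD3 24 and that of FOXR2 1. The median was 22.5 over 44 promoters of 33 forkhead genes and 11 over all promoters. The letters TGTTTAC, on either strand, stand in 1 of these 44 forkhead promoters, an internal start of FOXP1, and in 2.98% of all promoters. The related letters TGTTTGC stand in 2 of the 44, those of FOXD4 and FOXA1, and in 3.23% of all. Neither stands in the 3 stretches printed.

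**Figure D3:**
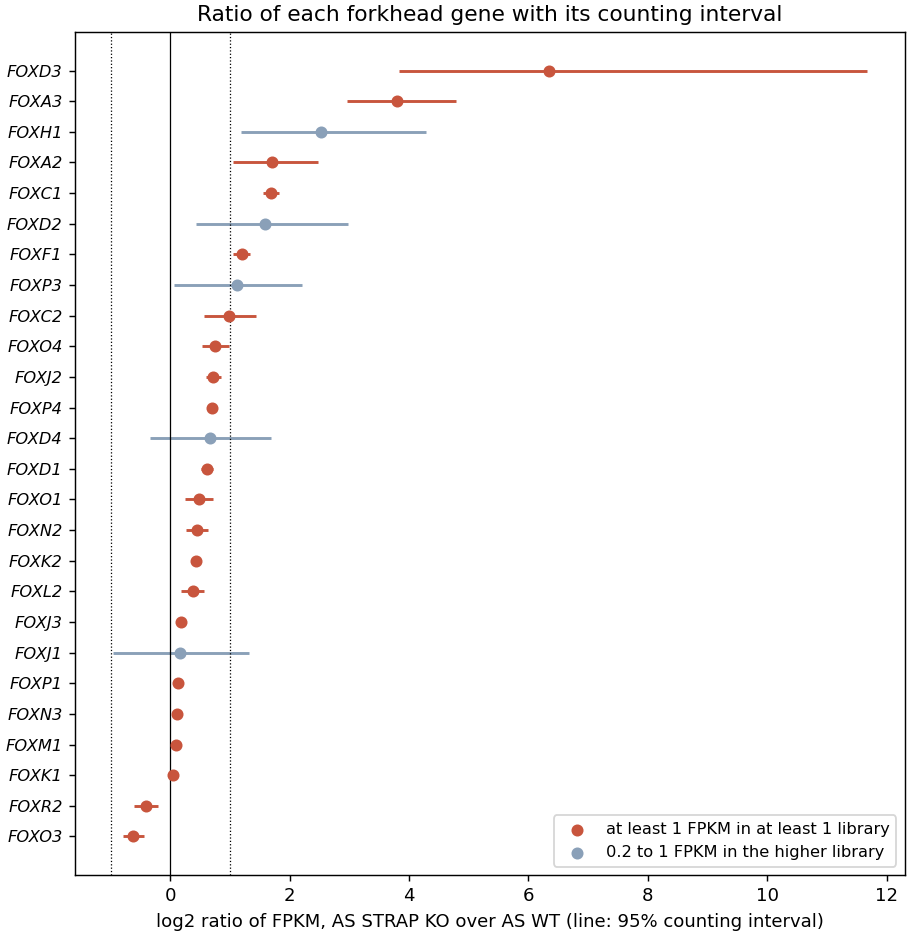
Log2 ratio of FPKM for each forkhead gene that reached 0.2 FPKM in a library, with its 95% counting interval from estimated reads over the longest transcript as a line, and dotted lines at 2-fold. The intervals of FOXD3, FOXA3, FOXH1, FOXA2, FOXC1 and FOXF1 lie above the upper 2-fold line. Those of FOXC2, FOXD2, FOXP3, FOXD4 and FOXJ1 cross it, and those of FOXO3 and FOXR2 lie below 0. FOXN3 and FOXP1 share their rows with other genes.

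FOXM1 was the most abundant forkhead gene in both libraries and differed little between them. It had 80.8 FPKM in AS WT against 86.5 in AS STRAP KO, for a log2 ratio of 0.10 that turned to -0.06 with the upper quartile of rows above 0 as the scale. The gene (ENSG00000111206.13) is on the minus strand of chromosome 12 from 2857680 to 2877174. In AS WT its level exceeded that of 87.3% of the rows that passed the filter, and in AS STRAP KO that of 88.9%. Most of the listed FOXM1 targets were lower by any amount, but few by 2-fold. Of 25 FOXM1 targets, 20 were lower by any amount, beside 6748 of all 13527 rows. By 2-fold or more, 2 targets were lower and no target was higher (8.31% of all rows). The median of the list was -0.24, against 0.0023 over all rows, of which 10.6% were lower by 2-fold or more. With a common total as the scale 1 target was lower by as much. KIF20A, a kinesin of cytokinesis, had 74.3 FPKM in AS WT against 28.2 in AS STRAP KO, and CDC20, an activator of the ubiquitin ligase of anaphase, 214 and 99.9 FPKM. The spindle checkpoint kinase gene BUB1B and the midzone gene PRC1, both in rows shared with other genes, had log2 ratios of -0.97 and -0.71.

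The next list mixes the partners of FOXM1 named above, MuvB and B-MYB, with genes of the DREAM complex. Its median is therefore not that of FOXM1's partners. None of 14 MuvB, B-MYB and DREAM genes was beyond 2-fold, where all rows gave 8.31% higher and 10.6% lower. Their median log2 ratio was 0.33, against 0.0023 over all rows. By any amount, 9 were higher and 5 lower, where 50.1% of all rows were higher. The B-MYB gene MYBL2, named after its value was seen, had 96.8 FPKM in AS WT against 141 in AS STRAP KO. LIN54, the DNA-binding subunit of MuvB, had 2.40 FPKM in AS WT against 4.40 in AS STRAP KO. DYRK1A, the kinase that promotes DREAM assembly, had 9.94 and 16.0 FPKM. The E2F partner genes TFDP2 and TFDP1 had lower values in AS STRAP KO, with log2 ratios of -0.78 and -0.56.

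The FOXO genes went in different directions. FOXO3 (ENSG00000118689.15, chromosome 6, 108559835 to 108684774) had 3.62 FPKM in AS WT against 2.35 in AS STRAP KO, for a log2 ratio of -0.62 (counting interval -0.80 to -0.45). Of the 75-base stretches in its annotated transcripts, 27.8% also occur in those of FOXO3B, whose row, shared with TBC1D28, had 1.90 and 2.43 FPKM. Both rows together came to 5.51 FPKM in AS WT against 4.78 in AS STRAP KO, so that reads divided between these copies leave the size of the difference uncertain. FOXO1 had 1.77 and 2.48 FPKM (log2 ratio 0.49), and 21.2% of its 75-base stretches are shared with another annotated gene. FOXO4 had 2.83 FPKM in AS WT against 4.77 in AS STRAP KO (0.75), without shared stretches. FOXO6, of the brain, stayed near 0.2 FPKM.

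Of 25 expressed FOXO targets, 6 were higher by 2-fold or more in AS STRAP KO and 1 lower by as much, where all rows gave 8.31% and 10.6%. The median log2 ratio was 0.39 (range over the alternative settings 0.21 to 0.47). INSR reached 1 FPKM in AS STRAP KO only and SESN3 in AS WT only. With at least 1 FPKM in both libraries, 5 targets were at least 2-fold higher and none lower by as much. Of the 11846 rows under that filter, 577 were higher and 680 lower. The insulin receptor gene INSR had 0.180 FPKM in AS WT against 2.05 in AS STRAP KO, and BBC3, the death gene PUMA, had 4.68 and 35.4 FPKM. FBXO32, the ubiquitin ligase atrogin, had 3.71 FPKM in AS WT against 14.1 in AS STRAP KO, and the Krüppel-like factor gene KLF2 9.71 and 36.3 FPKM. The exception on the lower side was the sestrin gene SESN3, at 1.06 and 0.372 FPKM, named after its value was seen. Several genes of this list, BBC3 and CDKN1A among them, are p53 targets as well.

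Of 24 expressed genes of PI3K, AKT and other FOXO regulators, 17 were higher and 7 lower by any amount. Of all rows, 50.1% were higher by any amount. Beyond 2-fold, 5 were higher (8.31% of all rows) and none lower (10.6% of all rows), with a median log2 ratio of 0.22. On the scale of the upper quartile of rows above 0, 3 were higher beyond 2-fold and the median was 0.066, and with 1 FPKM added 3 were higher. With at least 1 FPKM in both libraries, which leaves out PIK3CD, 4 were higher beyond 2-fold (4.87% of such rows). SGK1, a kinase that phosphorylates FOXO proteins as AKT does, had 26.5 FPKM in AS WT against 82.7 in AS STRAP KO. The acetyltransferase gene CREBBP had 9.61 and 26.1 FPKM, and the deacetylase gene SIRT1 8.34 and 18.1 FPKM. PIK3CD, a PI3K catalytic subunit, had 0.682 and 1.85 FPKM. The fifth, PDPK1, which activates AKT, had 10.1 and 20.3 FPKM and stood at the limit (named after its value was seen). AKT1, named likewise, had 152 FPKM in AS WT against 167 in AS STRAP KO.

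FOXR2, an X-linked oncogene that is switched on in some neuroblastomas and brain tumors, was the other member with a lower value. It had 7.02 FPKM in AS WT against 5.31 in AS STRAP KO, for a log2 ratio of -0.40 (counting interval -0.60 to -0.20) at an estimated 478 and 368 reads. The gene (ENSG00000189299.7) is on the plus strand of chromosome X from 55623400 to 55626192. Its near relative FOXR1 was listed at 0 in both libraries.

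The broadly expressed repressors of the family had log2 ratios from 0.05 to 0.69, of which those of FOXK1, FOXP1 and FOXN3 turned negative on the upper-quartile scale. FOXK2 had 34.8 FPKM in AS WT against 46.8 in AS STRAP KO (log2 ratio 0.43), and FOXK1, which shares its role in recruiting SIN3, had 8.59 and 8.89 FPKM (0.05, and -0.11 with the upper quartile of rows above 0 as the scale). None of 12 FOXK partners was beyond 2-fold, where all rows gave 8.31% higher and 10.6% lower. Their median was 0.20, against 0.0023 over all rows, and the Polycomb-linked ASXL2 had the largest log2 ratio, 0.65. FOXP4, a repressor of lung and gut development, had 12.7 and 20.6 FPKM, a log2 ratio of 0.69. Its divergent transcript FOXP4-AS1 had 4.84 FPKM in AS WT against 2.25 in AS STRAP KO, the opposite direction, at -1.11. FOXP1 could not be read alone, since its row is shared with EIF4E3 and a further gene and had 18.6 and 20.3 FPKM.

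Of 11 expressed FOXP partners, 1 was at least 2-fold higher and none was lower by as much, where all rows gave 8.31% and 10.6%. It was the calcium-responsive NFATC1, at 0.242 FPKM in AS WT against 1.35 in AS STRAP KO. The corepressor genes CTBP2 and GATAD2A had log2 ratios of 0.76 and 0.72, and the transcription factor gene RUNX1 0.77. The list's median was 0.43, and with 1 FPKM or more in both libraries no partner was 2-fold higher. FOXN3, a repressor, stands in a row with EFCAB11 at 19.9 and 21.5 FPKM, while FOXN3-AS1 had 1.83 FPKM in AS WT against 1.03 in AS STRAP KO. FOXN2 had 3.15 and 4.31 FPKM (log2 ratio 0.45), and the 4 expressed protein-coding genes within 1 Mb of it had a median of 0.49. FOXJ3 had 16.2 and 18.3 FPKM, and FOXJ2 5.94 and 9.78 FPKM, a log2 ratio of 0.72.

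A pair of further tissue factors, FOXD1 and FOXL2, had more than 1 FPKM in both libraries. FOXD1, known from kidney stroma and retina, had 24.5 FPKM in AS WT against 37.5 in AS STRAP KO, for a log2 ratio of 0.61 (counting interval 0.52 to 0.71). FOXL2, a factor of the ovary, had 5.58 and 7.25 FPKM, a log2 ratio of 0.38. FOXL2NB, which neighbours FOXL2 on the opposite strand, had 2.67 and 2.43 FPKM. In all, 6 of 11 listed neighbouring and antisense FOX transcripts reached 1 FPKM in a library. Of these, 1 was higher by 2-fold or more, FOXD3-AS1, and 1 lower by as much, FOXP4-AS1, where all rows gave 8.31% and 10.6%.

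Among members under 1 FPKM, FOXH1, the nodal-responsive partner of SMAD2, had 0.107 FPKM in AS WT against 0.615 in AS STRAP KO. Its log2 ratio of 2.52 had a counting interval from 1.18 to 4.28 at no more than an estimated 5.11 and 29.8 reads. FOXD2 had 0.128 and 0.385 FPKM (1.59, interval 0.43 to 2.98), and FOXP3, the factor of regulatory T cells, 0.216 and 0.466 FPKM (1.11, interval 0.05 to 2.21 by its longest transcript). The 22 expressed protein-coding genes within 1 Mb of FOXP3 had a median log2 ratio of 0.55. Of them, 6 were higher by 2-fold or more and 2 lower by as much. For FOXD4 (0.279 and 0.443 FPKM) and FOXJ1 (0.223 and 0.251 FPKM) the intervals included 0, so that a difference was not detectable at this depth, and 40.1% of the 75-base stretches of FOXD4 are shared with its copies. The remaining members above 0, FOXE3, FOXI1, FOXS1, FOXN4, FOXF2, FOXB1, FOXI3 and FOXA1, had under 0.05 FPKM. Among those listed at 0 in both were FOXB2, FOXE1, FOXI2, FOXN1, FOXP2, FOXQ1 and FOXR1. A listed 0 can be a failed estimate, since RPS18, a ribosomal gene every cell uses, is listed at 0 too.

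Pathways that feed these members showed mixed values. Of 8 expressed nodal and activin genes around FOXH1, 3 were at least 2-fold higher (8.31% of all rows), with a median log2 ratio of 0.37, and 1 in rows of a single symbol. The 3 were the activin inhibitor gene FST, at 2.24 FPKM in AS WT against 8.60 in AS STRAP KO, and GDF1 and SMAD4, whose rows are shared with other genes and had log2 ratios of 3.28 and 1.46. GDF1 reached 1 FPKM in AS STRAP KO only. With at least 1 FPKM in both libraries, 2 genes were at least 2-fold higher (4.87% of such rows). NODAL itself was listed at 0. SMAD2 had 28.6 and 38.5 FPKM.

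Of 9 expressed hedgehog genes, which act upstream of FOXF and FOXL genes, 6 were lower and 3 higher by any amount. Of all rows, 50.1% were higher by any amount. In all, 2 were lower by 2-fold or more, no gene was higher by as much, and the median log2 ratio was -0.39, beside 10.6% and 8.31% of all rows. With 1 FPKM added, 1 was lower beyond 2-fold. Both were co-receptor genes, BOC at 38.3 FPKM in AS WT against 10.5 in AS STRAP KO and CDON at 5.90 and 2.61 FPKM. GLI1, a direct readout of the pathway, had 2.32 and 1.33 FPKM, and the co-receptor gene GAS1 27.8 and 18.5 FPKM. FOXF1, described above, had the opposite direction.

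Of 9 expressed neural crest factors around FOXD3, 3 were higher by 2-fold or more and 2 lower by as much, around a median of -0.15, beside 8.31% and 10.6% of all rows. On the scale of the upper quartile of rows above 0, 1 was higher, 2 were lower and the median was -0.31. With at least 1 FPKM in both libraries, which leaves out MSX2, 2 were higher and 2 lower. SNAI2 had 22.0 FPKM in AS WT against 8.41 in AS STRAP KO, and MYC 41.1 and 17.6 FPKM. On the higher side were SOX9, at 14.1 and 31.0 FPKM, MSX2, at 0.803 and 1.89 FPKM, and SNAI1, at 8.40 and 18.5 FPKM (the last named after its value was seen). SOX10 and TFAP2B, which follow FOXD3 in the crest, were listed at 0 in both libraries. Of 7 expressed ciliary genes tied to FOXJ1, 2 were at least 2-fold lower, the dynein gene DNAI1 at 2.15 and 0.221 FPKM and TPPP3 at 26.1 and 11.6 FPKM, with a median of -0.35 and 10.6% of all rows lower by as much. The ciliary count was 1 with 1 FPKM or more in both libraries, and 4 lower and 2 higher with values above 0 in both.

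**Figure D4:**
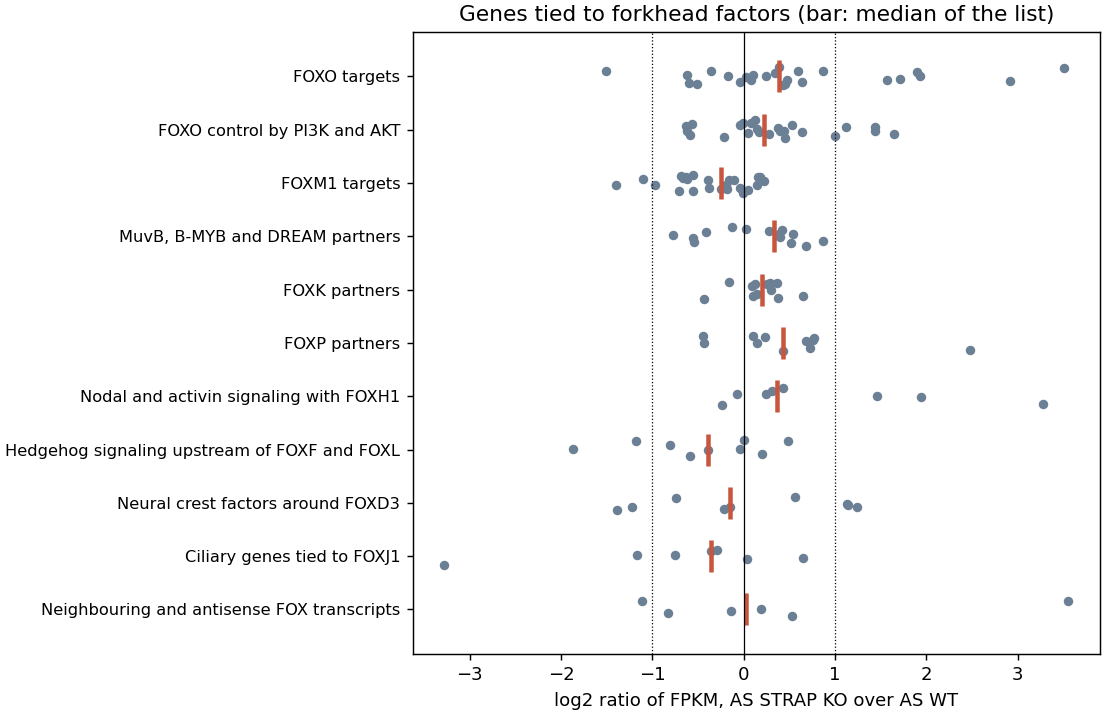
Log2 ratio of each expressed gene of 11 lists tied to forkhead factors, with the median of each list as a red bar, dotted lines at 2-fold and vertical jitter for legibility. FOXM1 targets lie mostly left of 0 with a median of -0.24, while FOXO targets have a median of 0.39 and reach 3.51 at INSR. INSR reached 1 FPKM in AS STRAP KO only.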

How the data were processed

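The measurements were RNA-seq of 2 libraries, 1 per genotype, from poly A selected RNA read as single-end 75 bp reads. Deposited was a table of FPKM values made by the authors with STAR on GRCh38 with GENCODE release 32 and with Cufflinks and Cuffdiff, strand set. Versions in the submitters' processing notes are Cufflinks 2.2.1, bcl2fastq 2.18.0.12 and STAR 2.7.6. How replicates entered each column is not stated in those sources.

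Comma-separated symbols were split, and the row of highest summed FPKM was kept per symbol. Ratios had no pseudocount, and counts cover rows that reached 1 FPKM in a library. With 1 library per group no test was made. The depth estimate, checked on simulated data, used genes with 1 transcript of at least 1500 bases, less a fragment of 200 bases, and 94.8% and 93.8% of low values came within 0.1 of a whole read. Counting intervals are exact binomial (Clopper-Pearson), at 95%, on estimated reads over the longest transcript, and are narrower than those of shorter transcripts. Positions come from GENCODE 44 on GRCh38, where all 44 members matched by symbol.

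Named were all members with at least 1 FPKM, lower members from 0.2 FPKM or beside them, and up to 4 genes per list by the largest ratio. A member is not reported here by name. Members and lists were chosen with earlier results of these data known. Alternatives were pseudocounts, filters, scalings, summed rows, rows of 1 symbol and a 1.5-fold limit. Scripts ran in Python 3.11.15 with SciPy 1.17.1, pandas 2.3.3, matplotlib 3.10.9 and numpy 2.4.6.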

Additional observations from a re-analysis of the deposited data

How the results depend on the processing

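The count of members at least 2-fold higher, 5 of 21, depended on the filter on low values. It was 3 where a library had to reach 2 FPKM, 2 with at least 1 FPKM in both and 8 with values above 0 in both, and it was 10, with 1 lower, at a 1.5-fold limit. The median log2 ratio of the members lay between 0.33 and 0.61 over all alternatives. With 1 FPKM added, FOXA3, FOXD3 and FOXA2 had log2 ratios of 1.89, 1.19 and 0.70, since their AS WT values are far below 1 FPKM. Rescaling to a common total moved the median of all rows to 0.11. The upper quartile of each library's rows above 0, a scale chosen after seeing the data, moved it to -0.16, turned FOXM1, FOXN3, FOXP1 and FOXK1 to -0.06, -0.05, -0.03 and -0.11, and took the median of the FOXK partners from 0.20 to 0.042. No other setting changed the sign of a member. No paired analysis was possible because each genotype has 1 library. Depth limits the members under 0.1 FPKM, which rest on few reads.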

Other observations

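Symbols that begin with FOX but stand outside the naming rule include close copies of members and unrelated genes. The copies FOXD4L1 and FOXD4L4 had 0.150 and 0.0188 FPKM in AS WT and 0.212 and 0.0184 FPKM in AS STRAP KO, and FOXD4L6 had a listed 0 and 0.0408 FPKM. FOXRED1 and FOXRED2, which encode oxidoreductases and not forkhead factors, had log2 ratios of 0.16 and 0.12. The antisense transcript FOXD1-AS1 had 0.343 FPKM in AS WT against 0.169 in AS STRAP KO, while FOXD1 was higher in AS STRAP KO.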
